A study of Mus musculus with 6 samples.

Results

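ATAC-seq peaks at 10 genes of the Wnt receptor and β-catenin degradation machinery were compared between 2 states of an immortalized osteoblast line of the mouse, named OB Fam20c f/f and, after Cre, OB Fam20c KO. The genes were the Wnt coreceptors Lrp5 and Lrp6, the scaffold genes Axin1, Axin2 and Apc, the kinase genes Gsk3a, Gsk3b and Csnk1a1, the SUMO protease gene Senp2, and Ctnnb1, which encodes β-catenin. Overlapping peaks of the 6 libraries, by 1 bp or more, were joined into regions, and each region that overlapped the RefSeq span of one of these genes (GRCm38.p6), extended by 20 kb on each side, was taken. This gave 88 of the 89410 merged regions. Both groups derive from osteoblasts with floxed alleles of Fam20c, the gene of a kinase that phosphorylates secreted proteins. OB Fam20c f/f was the line as bought and the labels give its treatment as control, while OB Fam20c KO had been infected with a lentivirus carrying Cre recombinase. No Cre-free virus control was among the 6 libraries, so that infection and loss of Fam20c cannot be told apart. Each group had 3 libraries, and whether these came from separate cultures is not given in the sources used here.

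In the absence of a Wnt ligand, Axin and Apc hold β-catenin beside the kinases Csnk1a1 (casein kinase 1α) and Gsk3, which phosphorylate it in turn and so mark it for ubiquitination and destruction by the proteasome. When a Wnt ligand joins Frizzled to Lrp5 or Lrp6, the tail of the coreceptor is phosphorylated and captures Axin, degradation stops, and β-catenin enters the nucleus to act with TCF/LEF factors. Axin2 is itself a transcriptional target of this pathway and dampens it. Senp2 removes SUMO from proteins and has been tied to the turnover of β-catenin. In bone, loss of LRP5 function in humans gives low bone mass and activating variants give high bone mass, and osteoblast formation depends on β-catenin. ATAC-seq marks chromatin that the Tn5 transposase can enter, so the values below describe access to DNA at these genes and not their mRNA or protein.

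The promoters of the genes for β-catenin, both Gsk3 kinases, Axin2 and Senp2 are shown because each lies in or beside a region with a peak in all 6 libraries, and the regions at gene starts are the common reference point for the values that follow. The RefSeq promoter table (GRCm38.p6) held windows for 5 of the 10 genes, and Ctnnb1 had a pair of windows from neighbouring start sites. The 250 bases before each start are printed 5′ to 3′ on the strand of the gene. Capitals mark the TCF/LEF core TCAAAG, the sequence through which β-catenin acts, and the CCAAT box (CCAAT), each on either strand. The motifs did not overlap in any of these windows.
Ctnnb1, chr9:120933150-120933399, plus strand: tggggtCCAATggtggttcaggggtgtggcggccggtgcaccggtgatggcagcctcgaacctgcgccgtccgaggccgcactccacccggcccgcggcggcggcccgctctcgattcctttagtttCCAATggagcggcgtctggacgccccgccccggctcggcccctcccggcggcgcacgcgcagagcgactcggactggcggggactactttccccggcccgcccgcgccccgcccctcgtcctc
Ctnnb1, chr9:120933328-120933577, plus strand: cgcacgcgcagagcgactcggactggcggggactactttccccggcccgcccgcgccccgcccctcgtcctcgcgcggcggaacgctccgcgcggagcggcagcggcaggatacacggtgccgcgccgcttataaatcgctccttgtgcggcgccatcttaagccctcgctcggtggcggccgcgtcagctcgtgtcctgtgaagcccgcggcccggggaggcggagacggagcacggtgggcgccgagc
Gsk3a, chr7:25237852-25238101, minus strand: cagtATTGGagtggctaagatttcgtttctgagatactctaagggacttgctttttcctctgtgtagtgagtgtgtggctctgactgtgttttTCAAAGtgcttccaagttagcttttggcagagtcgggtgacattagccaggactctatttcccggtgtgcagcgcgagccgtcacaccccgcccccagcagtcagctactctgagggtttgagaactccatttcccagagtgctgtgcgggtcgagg
Gsk3b, chr16:38088751-38089000, plus strand: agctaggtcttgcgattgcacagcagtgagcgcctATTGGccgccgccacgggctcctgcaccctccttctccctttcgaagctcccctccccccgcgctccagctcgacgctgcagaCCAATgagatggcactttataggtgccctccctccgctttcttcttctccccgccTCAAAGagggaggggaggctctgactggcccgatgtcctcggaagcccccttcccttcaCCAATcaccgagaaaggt
Axin2, chr11:108920099-108920348, plus strand: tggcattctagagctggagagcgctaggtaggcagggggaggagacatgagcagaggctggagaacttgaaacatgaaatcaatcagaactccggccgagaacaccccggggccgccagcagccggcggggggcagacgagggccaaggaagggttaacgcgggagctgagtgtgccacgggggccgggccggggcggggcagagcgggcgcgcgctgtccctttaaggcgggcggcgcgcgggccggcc
Senp2, chr16:22009234-22009483, plus strand: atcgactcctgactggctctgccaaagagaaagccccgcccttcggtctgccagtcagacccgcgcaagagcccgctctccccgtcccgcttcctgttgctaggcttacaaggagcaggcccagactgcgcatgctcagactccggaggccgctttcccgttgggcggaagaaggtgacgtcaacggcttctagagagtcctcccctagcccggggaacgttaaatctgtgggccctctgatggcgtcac

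Gsk3a and Gsk3b each held 1 TCF/LEF core, which 13.8% of all 32851 windows of the same length hold on either strand. Gsk3b also held 3 CCAAT boxes. A CCAAT box was found in 33.8% of all windows and 3 or more in 2.79%. Gsk3a had 1 CCAAT box, the upstream window of Ctnnb1 had 2, and none was present in the windows of Axin2 and Senp2. The letters of an AP-1 site (TGANTCA, in 6.75% of windows) and of an E-box (CANNTG, in 66.2%) did not occur in any of the 6 windows. The GC content was 52.0% for Gsk3a and 62.0% for Gsk3b, against 74.8% and 74.4% for the Ctnnb1 windows. These matches describe the letters of the windows and not bound factors.

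The lists held 62781 to 74797 peaks in 5 libraries and 32958 in KO replicate 3. In that library 30.9% of the peak summits lay within 1 kb of an end of a protein-coding gene, against 16.9% to 19.2% in the others. KO replicate 3 therefore stood apart, and results are given with and without it. The lists carry no read depth and none was used here, and a missing peak means that the authors' threshold was not passed. At Fam20c itself the 3 f/f libraries had a peak in 3, 2 and 3 regions and the 3 KO libraries in 4, 1 and 1, and a peak list cannot show the deleted exon. Of 6 osteoblast genes looked up, Runx2, Sp7 and Col1a1 had a peak within 1 kb of an end of the gene in all 6 libraries and Alpl in 5. Ibsp and Bglap, which mark late osteoblasts, had none there in any library.

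All 10 genes were accessible in both groups, each with at least 1 region found in every library. Of the 88 regions, 33 had a peak in all 6 libraries (37.5%), 15 in every library but KO replicate 3, and 21 in a single library. The f/f libraries had a peak in 57, 65 and 74 of the 88 regions and the KO libraries in 62, 62 and 33. Apart from KO replicate 3, the KO values lay within the f/f range. A peak in all 3 f/f libraries and no KO library was found in 3 regions, 1 each at Gsk3b, Senp2 and Lrp5. Over the whole genome 3.75% of the regions had this pattern. The opposite pattern, held by 0.179% of all regions, was found at none of the 10 genes.

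Gsk3b and Senp2 were the genes with more accessible regions in every f/f library than in any KO library, 2 of 10 genes beside 9.94% of 18160 protein-coding genes. For the remaining 8 genes the groups overlapped. At no gene did every KO library exceed every f/f library, a pattern of 0.121% of protein-coding genes. When the same number of peaks (32958, the length of the shortest list) was taken from each library, none of the 10 genes had groups that did not overlap, beside 4.92% of genes with f/f above KO and 3.84% with KO above f/f. Senp2 then had 3 regions in every library, and Gsk3b had 4, 5 and 5 in f/f and 4, 4 and 3 in KO. The plot of regions per gene shows these counts for each library.

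**Figure D1:**
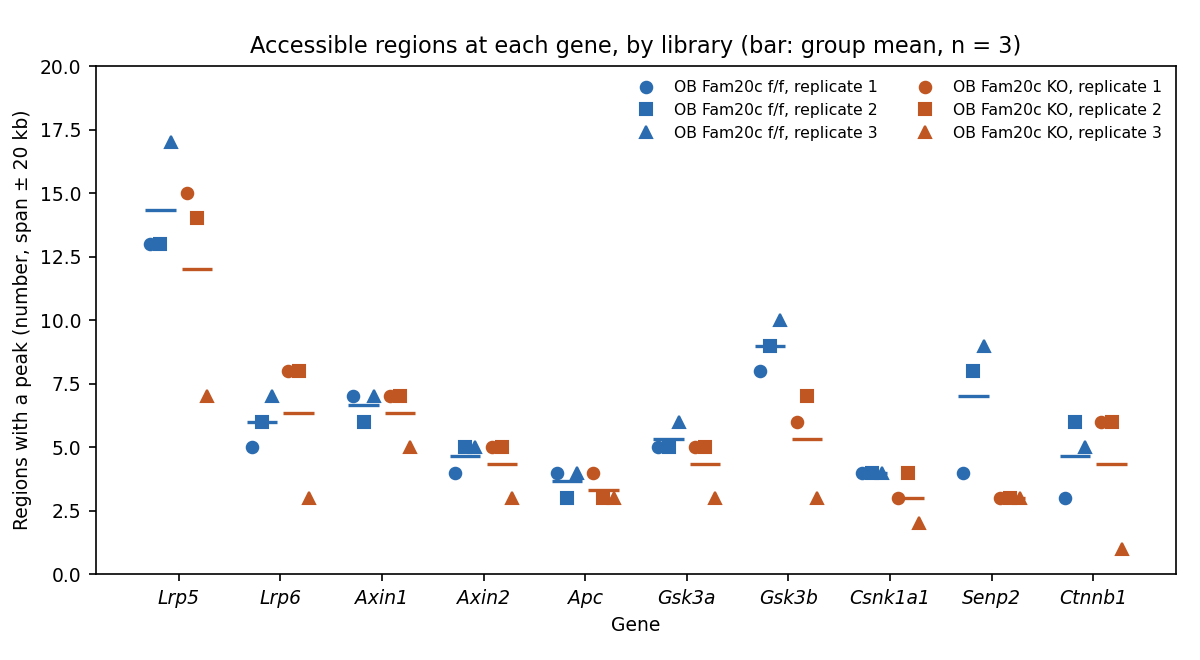
Number of regions with a peak (vertical axis) at each gene, counted over the gene span extended by 20 kb, in each f/f library (blue) and KO library (orange), with bars at the group means (n = 3). At Gsk3b (8 to 10 against 3 to 7) and Senp2 (4 to 9 against 3 in each) the groups do not overlap, and KO replicate 3 (orange triangles) is the lowest or joint lowest library at every gene.

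To compare strength between libraries with lists of unequal length, each region was given a standing. This is its percentile by −log10 q among the 29849 regions present in every library, from 0 for the weakest to 100 for the strongest of that library. A standing is relative to the other regions of the same library. Without KO replicate 3, the 46992 regions present in every remaining library were ranked instead. A difference without that library is thus on another scale, and its change from the full set is not the effect of the library alone. Of the 33 regions at the 10 genes that could be ranked in this way, 6 were lower in KO (18.2%) and 5 higher (15.2%) in limma's moderated test at an adjusted p of 0.05 over all 29849 regions. The shares over all regions were 11.3% lower and 12.6% higher. The other 22 regions did not pass the test. The median difference, KO minus f/f, was -2.66 percentile points, and -0.24 over all regions. The 11 regions that passed lay at 5 genes, Lrp5, Lrp6, Axin1, Csnk1a1 and Senp2. In all 11 the standings of the groups did not overlap, but a test on these same standings picked them, so this adds no support. All 11 also passed without KO replicate 3, in a run that used the remaining libraries again. The shares of all called regions with these properties are not given here.

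Lrp5 encodes a coreceptor for Wnt ligands and had the most regions of the 10 genes (19, of which 15 overlapped the gene span, chr19:3584825-3686585). The f/f libraries had a peak in 13, 13 and 17 of them and the KO libraries in 15, 14 and 7, a mean of 14.3 ± 2.31 against 12 ± 4.36 (SD, n = 3 each; exact permutation test, two-sided, p = 0.6). The total thus did not separate the groups, and without KO replicate 3 the difference was 0.167 regions. Inside the gene, however, single regions moved in opposite directions, and 4 of the 7 ranked regions passed the test.

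The region that fell most at Lrp5 was chr19:3638515-3639502, inside the gene and 53690 bp from its low-coordinate end. Its −log10 q was 49.5, 71.3 and 100.5 in the f/f libraries and 10.4, 17.6 and 3.7 in the KO libraries. Its standing was 38.6, 51.5 and 44.1 in f/f and 1.15, 2.31 and 5.79 in KO. It was a middle-ranking region in every f/f library and among the weakest shared regions in every KO library. The difference was -41.6 ± 4.21 percentile points (SE; limma, adjusted p = 0.000503). The authors' fold over local background was 9.75, 9.94 and 10.5 in f/f and 4.20, 4.79 and 3.39 in KO. Ranked by that fold, the difference was -52.7 (limma, adjusted p = 0.039), so both measures of the peak placed the region lower in KO.

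Closer to the low-coordinate end, 38656 bp inside the gene, a weaker region, chr19:3623481-3624672, had standings of 28.6, 30.6 and 25.6 in f/f and 13.4, 5.54 and 1.18 in KO. It was lower in every KO library, by -21.6 ± 3.85 (SE; limma, adjusted p = 0.00517). By fold the difference was -32.5 and did not pass (limma, adjusted p = 0.0665). The call was also lost when all merged regions were ranked (-10.6, adjusted p = 0.145).

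A pair of regions of Lrp5 rose toward the high-coordinate end of the gene. The region chr19:3681054-3681937 had standings of 7.78, 4.55 and 5.43 in f/f and 30.3, 31.1 and 41.0 in KO. Its fold was 5.63, 3.89 and 4.99 in f/f and 8.76, 9.05 and 5.26 in KO. The standing was higher in each KO library than in any f/f library, with the highest value in KO replicate 3, whereas the fold of KO replicate 3 lay within the f/f range. The difference was 28.2 ± 3.84 (SE; limma, adjusted p = 0.00171), and by fold 25.3 (limma, adjusted p = 0.0446). The region chr19:3648570-3649961 stood at 15.1, 9.02 and 8.06 in f/f and at 32.8, 41.5 and 32.2 in KO. It rose by 24.8 ± 4.06 (SE; limma, adjusted p = 0.0037), and its difference by fold, 23.0, did not pass (adjusted p = 0.122). The lowered and raised regions lay side by side, the raised one at 63745 bp being the next ranked region after the lowered one at 53690 bp.

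The region across the high-coordinate end of Lrp5, chr19:3685777-3687000, was weak in both groups, with standings of 9.28, 16.1 and 11.8 in f/f and 18.7, 18.6 and 18.7 in KO. All KO values exceeded all f/f values, but the difference of 6.30 ± 3.05 did not pass (SE; limma, adjusted p = 0.165). The region with the highest standing near Lrp5, chr19:3575075-3576547, overlapped the neighbouring gene Ppp6r3 and did not pass either, at -3.18 (adjusted p = 0.326). Without KO replicate 3 it passed at -3.62 (adjusted p = 0.0384). Its standing in KO replicate 3, 90.7, was the highest of the 6 libraries.

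Of the regions of Lrp5 missing from some list, chr19:3581382-3581782 was only in f/f. It lay 3043 bp outside the low-coordinate end of the gene. Its −log10 q was 15.7, 9.6 and 25.7 and its fold 5.97, 3.78 and 6.15 in the 3 f/f libraries. Its percentile within the full list of each library was 38.6, 27.8 and 45.2, so that it was of less than middle rank. The region chr19:3642409-3643100, inside the gene, had the reverse pattern in part, with a −log10 q of 6.7 and 19.96 in KO replicates 1 and 2 and no peak in the other 4 libraries. The maps of peaks along Lrp5, Gsk3b and Senp2 show these regions in place.

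**Figure D2:**
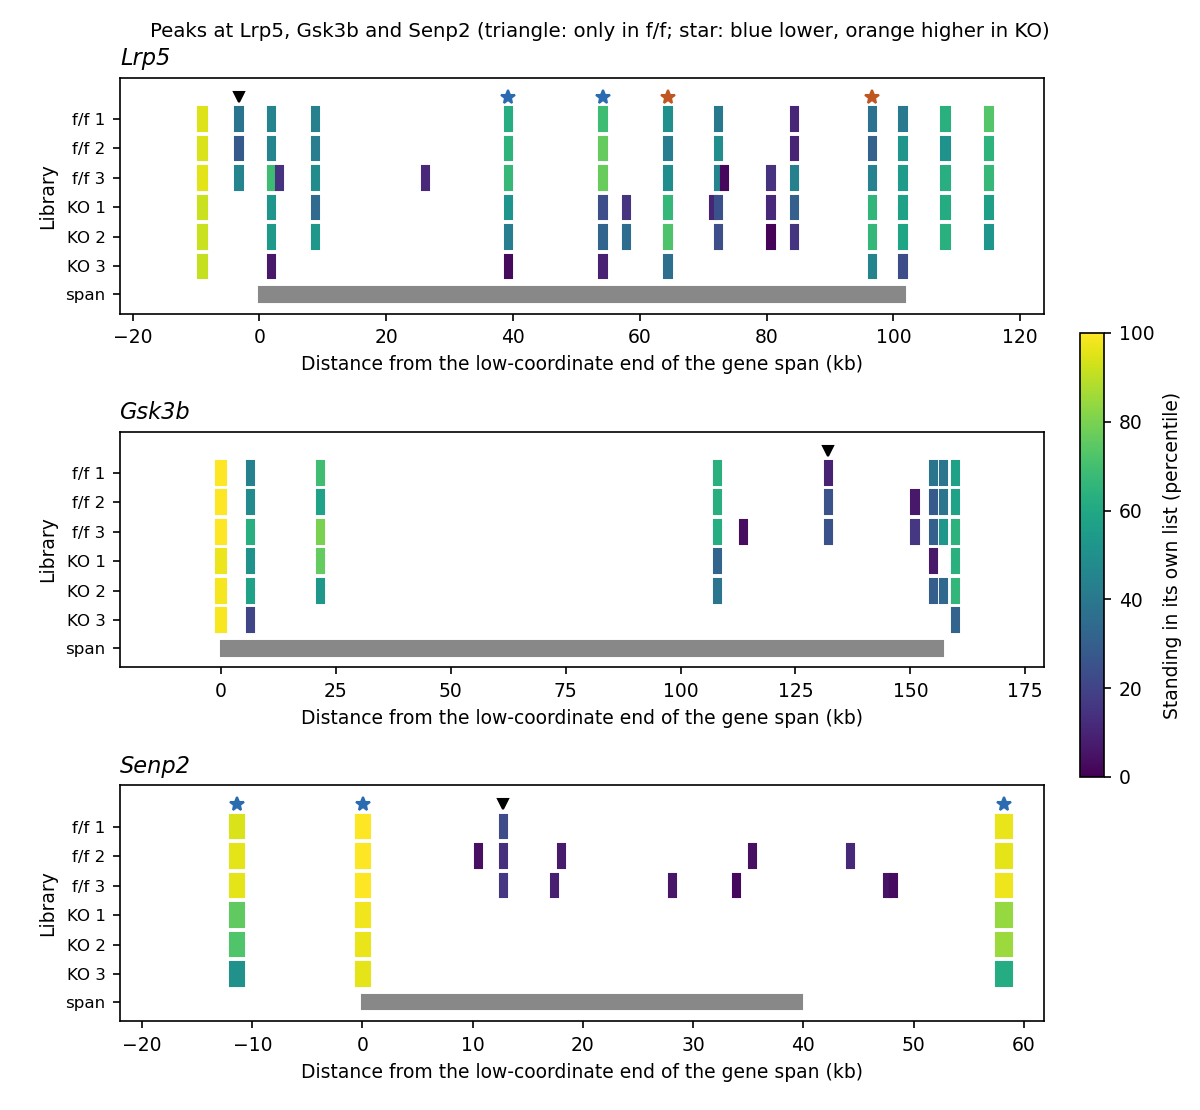
Peaks of each library (rows) along Lrp5, Gsk3b and Senp2, by distance in kb from the low-coordinate end of the gene span (grey bar), coloured by percentile of −log10 q within the list of that library, with narrow peaks widened to be visible. Black triangles mark the regions only in f/f, and stars mark regions with a lower (blue) or higher (orange) standing in KO, of which Lrp5 has 2 of each kind and Senp2 has 3 lower.

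Lrp6 encodes the other coreceptor (chr6:134446476-134566913) and had 10 regions. The numbers with a peak were 5, 6 and 7 in f/f and 8, 8 and 3 in KO (6.0 ± 1.0 against 6.33 ± 2.89, SD, n = 3 each; exact permutation test, two-sided, p = 1). KO replicates 1 and 2 lay above all f/f libraries and KO replicate 3 below them, and without KO replicate 3 the difference was 2.0 regions. The region across the high-coordinate end of Lrp6, chr6:134565753-134567670, rose. Its standing was 39.8, 51.8 and 43.8 in f/f and 73.4, 64.1 and 69.2 in KO. Its fold was 9.66, 8.75 and 9.32 in f/f and 14.1, 13.3 and 8.44 in KO. It moved from the middle of the ranked regions into the upper part in every KO library, a difference of 23.8 ± 4.79 (SE; limma, adjusted p = 0.00859), with 23.0 by fold (adjusted p = 0.129). Without KO replicate 3, on the scale of 46992 regions, it was 15.8 by −log10 q. When peaks had to share 50% of the shorter peak, the low-coordinate part, chr6:134565753-134566329, became a separate region only in f/f. The remaining part still rose, by 23.8 (limma, adjusted p = 0.00856).

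The strongest region of Lrp6, chr6:134472682-134473925 inside the gene, went the other way. It stood at 85.0, 84.7 and 77.4 in f/f and at 67.0, 67.9 and 71.4 in KO. The groups did not overlap and the difference was -13.6 ± 2.97 (SE; limma, adjusted p = 0.012). By fold it was -4.08 (adjusted p = 0.64), and without f/f replicate 2 the call was lost (-12.4, adjusted p = 0.0533). One region inside Lrp6, chr6:134544872-134545291, had a peak in KO replicates 1 and 2 only, with a −log10 q of 2.2 and 6.7, close to the authors' threshold in the weaker of the libraries.

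Lrp5 and Lrp6 together had 3 lower and 3 higher regions among 10 that could be ranked (30.0% each), beside the 11.3% and 12.6% of all regions. The calls at the coreceptors went in both directions, and the median difference was -3.18 over the ranked regions of Lrp5 and 3.01 over those of Lrp6.

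Axin1 and Axin2 encode the scaffold of the destruction complex, Axin1 being present in most cells and Axin2 induced by the pathway. Axin1 (chr17:26131217-26195811) had 10 regions, 5 of them present in every library. Its counts were 7, 6 and 7 in f/f and 7, 7 and 5 in KO (exact permutation test, two-sided, p = 1). Its strongest region, chr17:26137978-26139579, lay 6761 bp inside the low-coordinate end of the gene and also overlapped the predicted gene Gm46600. The standings were 86.2, 86.4 and 86.7 in f/f and 95.0, 95.3 and 95.0 in KO. The spread within each group was below 1 percentile point, and the difference was 8.69 ± 1.17 (SE; limma, adjusted p = 0.00163). Without KO replicate 3, on the scale of 46992 regions, the difference was 5.55. By fold it was 21.5 and did not pass (adjusted p = 0.196). The other 4 ranked regions of Axin1 lay outside the gene, over or near Pgap6 and Rgs11, had differences from -9.63 to -2.78 and did not pass.

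Axin2 (chr11:108917828-108950783) had 5 regions, with a peak in 4, 5 and 5 of them in f/f and 5, 5 and 3 in KO (exact permutation test, two-sided, p = 1). The region at the start printed above, chr11:108919963-108922204, was 2242 bp wide. It stood at 75.9, 79.6 and 83.2 in f/f and 78.6, 77.4 and 77.8 in KO. The KO values lay within the f/f range, and the difference was -1.64 ± 2.50 (SE; limma, adjusted p = 0.669). The other 2 ranked regions had differences of -4.65 and -6.62 and did not pass.

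Apc encodes the large scaffold that binds β-catenin and is lost in many colorectal tumours. Apc (chr18:34220297-34322190) had 4 regions, with a peak in 4, 3 and 4 of them in f/f and 4, 3 and 3 in KO, the most even counts of the 10 genes. No region crossed an end of its span. The nearest, chr18:34220541-34222129, began 244 bp inside the low-coordinate end and was picked after its values were seen. It stood at 77.6, 78.0 and 70.5 in f/f and at 78.1, 69.6 and 71.1 in KO. The groups overlapped, with a difference of -2.39 ± 3.42 (SE; limma, adjusted p = 0.648). The highest-ranked region near Apc overlapped the neighbouring gene Srp19 and did not pass, at -4.09 (adjusted p = 0.113).

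The kinase gene Csnk1a1, whose product primes β-catenin for Gsk3 (chr18:61554236-61590320), had 4 regions, all with a peak in each f/f library and 3, 4 and 2 with a peak in the KO libraries (exact permutation test, two-sided, p = 0.4). Its strongest region, chr18:61554764-61555986, began 528 bp inside the low-coordinate end. The standings were 79.2, 80.7 and 79.9 in f/f and 85.7, 86.9 and 84.7 in KO. The fold was 12.8, 10.3 and 11.4 in f/f and 16.8, 17.9 and 11.1 in KO. The groups did not overlap in standing, and the rise of 5.83 ± 1.78 was the least firm of the 11 calls (SE; limma, adjusted p = 0.0434). It was lost without each f/f library and without KO replicate 1 or 2, with adjusted p from 0.0764 to 0.157, and kept without KO replicate 3 (4.04, adjusted p = 0.0409). It was also lost by fold, by normal scores, over all merged regions, with equal numbers of peaks and with the replicate block, in 10 of 13 alternatives in all.

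Gsk3a and Gsk3b encode the closely related kinases that phosphorylate β-catenin and the coreceptor tails. Gsk3a (chr7:25228258-25237851) had 6 regions, with a peak in 5, 5 and 6 of them in f/f and 5, 5 and 3 in KO (exact permutation test, two-sided, p = 0.6). The region at its start, chr7:25237406-25238792, stood at 85.9, 94.2 and 86.2 in f/f and at 77.7, 76.8 and 93.4 in KO. KO replicates 1 and 2 were below every f/f library, while KO replicate 3 was just below the highest f/f value, that of f/f replicate 2. The difference of -6.13 ± 4.30 did not pass (SE; limma, adjusted p = 0.332). Without KO replicate 3 it was -7.31 ± 1.70 and passed (SE; limma, adjusted p = 0.0148). KO replicate 3 was also the library with the larger share of peaks at gene ends, and the part of that in this value was not tested.

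Gsk3b (chr16:38089001-38246084) had 10 regions. The f/f libraries had a peak in 8, 9 and 10 of them and the KO libraries in 6, 7 and 3, with means of 9.0 ± 1.0 and 5.33 ± 2.08 (SD, n = 3 each). The groups did not overlap, and the difference of -3.67 regions had the smallest p that 3 libraries against 3 can give (exact permutation test, two-sided, p = 0.1). Without KO replicate 3 the difference was -2.50. The region at the start, chr16:38087801-38090031, was among the strongest shared regions in both groups. It stood at 99.5, 99.4 and 99.2 in f/f and at 93.7, 97.4 and 99.0 in KO. All KO values were below all f/f values, and the difference of -2.66 ± 1.33 did not pass (SE; limma, adjusted p = 0.178). With normal scores in place of percentiles this region passed as lower in KO (-0.556 in normal scores; limma, adjusted p = 0.0241). By fold the sign was the opposite, 17.5 (adjusted p = 0.491). The other 2 ranked regions of Gsk3b did not fall. The region chr16:38248378-38249357, over the neighbouring gene Nr1i2, stood at 21.7, 21.6 and 22.1 in f/f and at 27.7, 29.9 and 27.4 in KO, a difference of 6.53 ± 3.36 that did not pass (SE; limma, adjusted p = 0.19). The region chr16:38095016-38095906, inside the gene, had a difference of 1.07 ± 3.43 (SE; limma, adjusted p = 0.849).

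The region only in f/f at Gsk3b, chr16:38220870-38221456, lay 131869 bp inside the gene. It was weak, with a −log10 q of 4.7, 8.8 and 10.9 and a fold of 3.88, 4.14 and 4.53 in the f/f libraries. A stronger region, chr16:38196404-38197763, had a peak in every library but KO replicate 3. Its −log10 q was 40.1, 38.9 and 51.0 in f/f and 15.0 and 23.1 in KO replicates 1 and 2. When the regions with a peak in the other 5 libraries were ranked, it was lower in KO by -29.6 ± 5.73 percentile points (SE; limma, adjusted p = 0.007).

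Senp2 (chr16:22009432-22049269) was the other gene whose counts did not overlap. Of its 13 regions, the f/f libraries had a peak in 4, 8 and 9 and each KO library in 3. The means were 7.0 ± 2.65 and 3.0 ± 0.0 (SD, n = 3 each), and the difference of -4.0 regions again had the smallest possible p (exact permutation test, two-sided, p = 0.1). The same 3 regions carried the KO peaks in all KO libraries. Of the other 10 regions, 9 had a peak in a single f/f library and 1 was only in f/f, chr16:22021919-22022519, with a −log10 q of 8.5, 5.4 and 7.3 and a fold of 4.51, 2.99 and 3.41. These were weak peaks, and f/f replicate 1 lacked all of the 9.

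The 3 regions that remained at Senp2 were all lower in standing. The region before the gene, chr16:21997416-21998662, lay 10770 bp from the span and nearest to Liph. It stood at 88.6, 91.9 and 90.3 in f/f and at 49.5, 41.7 and 46.8 in KO. It dropped from near the top to the middle of the ranked regions in every KO library, a difference of -44.3 ± 3.40 (SE; limma, adjusted p = 0.000223) and the largest at the 10 genes by this measure. Without KO replicate 3, on the scale of 46992 regions, it was -28.6, smaller than the -51.8 of the lowered Lrp5 region. Differences without that library cannot be set against those of the full set, since the ranked regions differ. Among the 29849 regions, the standing in KO replicate 3, 46.8, lay between those of KO replicates 1 and 2. By fold the Lrp5 region also had the larger difference. The region inside the neighbouring gene Igf2bp2, chr16:22066943-22068406, stood at 93.5, 91.3 and 93.8 in f/f and at 66.7, 68.3 and 58.8 in KO (difference -28.3 ± 2.88, SE; limma, adjusted p = 0.000513; -16.1 without KO replicate 3). The region at the start of Senp2, chr16:22008801-22010149, moved from 99.6, 99.2 and 99.2 to 95.8, 93.1 and 95.4. Its difference was -4.53 ± 1.02 (SE; limma, adjusted p = 0.0133), and without f/f replicate 3 it just missed the threshold (-4.59, adjusted p = 0.0506), as it did over all merged regions (-1.52, adjusted p = 0.0524).

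The fall at Senp2 was not seen by fold for each of these regions. Ranked by the authors' fold, the differences were -23.0 before the gene, 14.4 at the start and 1.32 inside Igf2bp2, and none passed (adjusted p = 0.0831, 0.167 and 0.922). The fold at the start was 14.0, 10.7 and 11.5 in f/f and 16.9, 16.2 and 11.8 in KO, so that it was higher in each KO library than in any f/f library but the first. A −log10 q depends on the number of reads at a place as well as on the ratio to its surroundings, whereas the fold is that ratio alone.

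**Figure D3:**
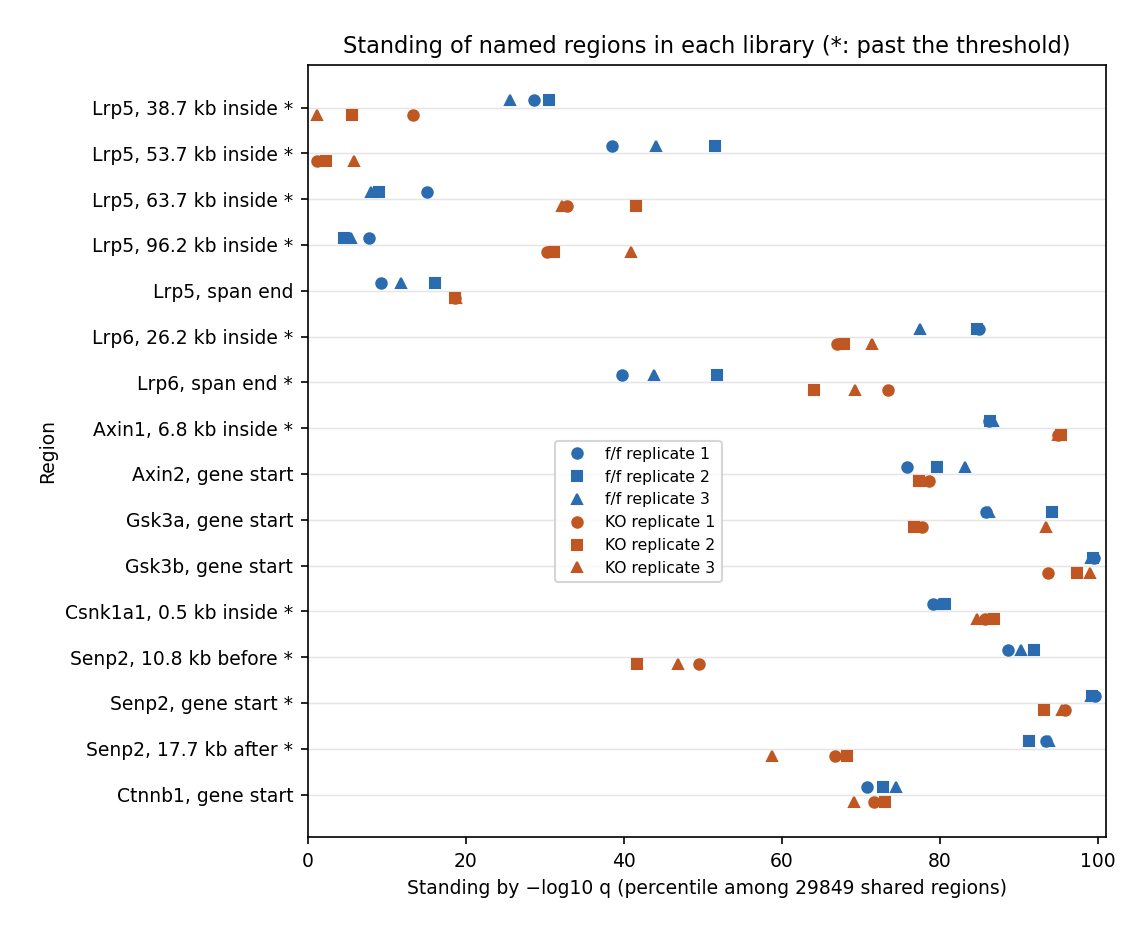
Standing by −log10 q (horizontal axis, percentile among the 29849 regions present in every library) of the regions at gene starts or span ends and of the 11 regions past the threshold (starred), in each f/f library (blue) and KO library (orange). The starred regions were picked by a test on these same standings. The groups separate at each of them, most widely at Senp2 10.8 kb before the span (88.6 to 91.9 against 41.7 to 49.5) and Lrp5 53.7 kb inside it (38.6 to 51.5 against 1.15 to 5.79).

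Gsk3b and Senp2 lie on chromosome 16 between 20 and 40 Mb, where most ranked regions were lower in KO by −log10 q. Of the ranked regions within 1 Mb of Senp2, 33 of 46 were lower in KO (71.7%) and 0 higher. Near Gsk3b 24 of 30 were lower (80.0%) and 0 higher. The median differences were -16.9 and -16.8 by −log10 q but 2.43 and 1.45 by fold. In the whole segment, without the regions of Gsk3b and Senp2, 259 of 337 ranked regions were lower (76.9%) and the median difference was -19.0, or -0.91 by fold. Of 181 other protein-coding genes in the segment, 102 had more regions in every f/f library (56.4%). With equal numbers of peaks this held for 66 of 167 (39.5%, beside 4.92% of all genes), but no longer for Gsk3b and Senp2. The 3 ranked regions of Senp2 fell as most of their neighbours did, whereas none of the 3 at Gsk3b passed the test on percentiles. By normal scores the start of Gsk3b did pass as lower. What set the values of the segment was not tested. At the other 8 genes the median difference within 1 Mb was between -3.02 at Lrp6 and 1.32 at Csnk1a1, and the share lower was at most 21.9%, at Axin2. Leaving out Gsk3b and Senp2, 3 of 27 ranked regions were lower (11.1%) and 5 higher (18.5%), beside the 11.3% and 12.6% of all regions.

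Ctnnb1 encodes β-catenin, the protein that the complex degrades (chr9:120933400-120960507), and had 7 regions. The f/f libraries had a peak in 3, 6 and 5 of them and the KO libraries in 6, 6 and 1 (4.67 ± 1.53 against 4.33 ± 2.89, SD, n = 3 each; exact permutation test, two-sided, p = 1). The region at its start, chr9:120932922-120934753, was the only one with a peak in all 6 libraries. Its standings were 70.7, 72.8 and 74.5 in f/f and 71.7, 73.0 and 69.1 in KO. The groups overlapped, and the difference was -1.40 ± 2.84 (SE; limma, adjusted p = 0.755). One region, chr9:120976083-120976476, within the neighbouring gene Ulk4, had a peak in KO replicates 1 and 2 only, with a −log10 q of 2.7 and 11.8.

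By fold in place of −log10 q, 1 of the 33 ranked regions was lower and 1 higher, both at Lrp5, where the shares over all regions were 0.63% and 0.754%. Of the 11 regions called by −log10 q, 9 had the same sign by fold, the start of Senp2 and the region in Igf2bp2 being the exceptions. Both measures come from the same peaks, and the share with the same sign among all called regions is not given here. The count is therefore not independent support. In the plot of both measures, all 6 regions of Gsk3b and Senp2 stood higher by fold than by −log10 q, and those of Lrp5 lay on either side.

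**Figure D4:**
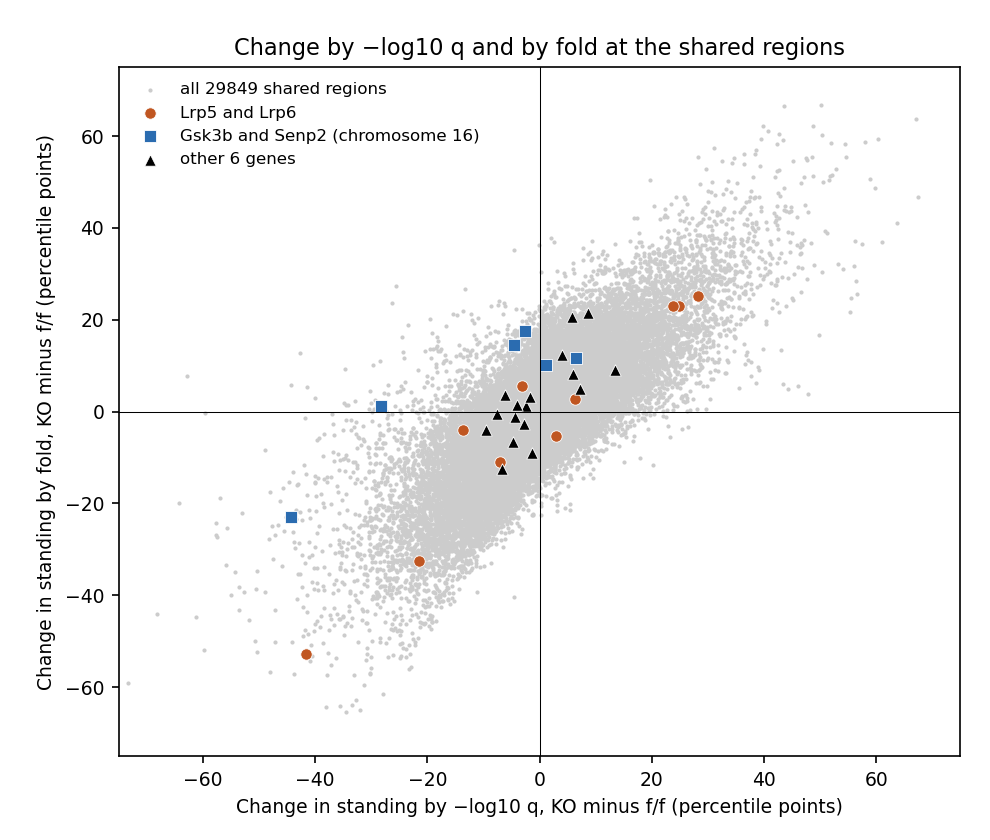
Change in standing by −log10 q (horizontal axis) and by fold (vertical axis), KO minus f/f in percentile points, for all 29849 regions present in every library (grey) and for the 33 at the 10 genes (Lrp5 and Lrp6 orange, Gsk3b and Senp2 blue, the others black). The region of Lrp5 at -41.6 and -52.7 is low on both axes, and that of Senp2 at -28.3 and 1.32 is low by −log10 q alone.

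KO replicate 3 limited what could be ranked. Without it 48 regions at the 10 genes could be tested, of which 10 were lower and 7 higher in KO, beside 10.9% and 11.6% of all regions so ranked. The additional lower regions were the start of Gsk3a, the region inside Gsk3b described above, the region over Ppp6r3 near Lrp5, and chr19:3656949-3657517 inside Lrp5 (-16.4, limma, adjusted p = 0.0498). The additional higher regions lay outside the genes, chr17:26200847-26202065 over Arhgdig near Axin1 (16.3, adjusted p = 0.0328) and chr18:61609447-61610183 beyond Csnk1a1 (21.0, adjusted p = 0.0374). Regions only in f/f stayed at 3 without this library (3.82% of all regions), and regions only in KO became 3, at Ctnnb1, Lrp5 and Lrp6, where 2.93% of all regions had that pattern.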

How the data were processed

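The series holds ATAC-seq of OB Fam20c f/f and its derivative OB Fam20c KO, 3 libraries each, grouped and numbered by the sample labels, each from 50000 nuclei transposed for 30 min at 37 °C. The authors trimmed the reads, aligned them to mm10 with BWA and used MACS2 2.1.2, with q under 0.05, to call peaks library by library. Per peak, the deposited lists give a score, the fold over local background (a ratio), −log10 p and −log10 q. Read counts were not used here, so the study's count model could not be fitted. Peaks sharing 1 bp were merged, and each region took the highest −log10 q and the highest fold of its peaks in a library. Standings were tested with limma 3.58.1 (R 4.3.3; eBayes with trend) and Benjamini-Hochberg adjustment over all 29849 shared regions. Numbers of regions were compared by exact permutation over the 20 assignments of the libraries. The merging, the sorting into regions only in f/f or only in KO, and the limma step were also run on simulated data, with outcomes not given here. The simulation of the limma step gave every region and library the same spread. It thus did not test a library that stands apart, as KO replicate 3 does.

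The p-values measure the spread between these libraries, which may be technical. The 10 genes and all lists were chosen with earlier results of these data known. Named are the regions at gene starts or span ends, the regions in 1 group only, those past the threshold and the highest-ranked region of each gene, and any other named region was chosen after its values were seen. Gene spans and promoters came from RefSeq (GRCm38.p6), and the spans carry no strand. Alternatives were a peak in 2 of 3 libraries, a −log10 q of 5 or more, equal numbers of peaks, 50% overlap, spans extended by 3 kb, ranks by fold, normal scores, all merged regions, the replicate block, and each library left out.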

Additional observations from a re-analysis of the deposited data

How the results depend on the processing

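Regions only in f/f numbered 3. They became 5 with a peak in at least 2 of 3 libraries, 1 with equal numbers of peaks, and 3 to 6 when a library was left out, with 6 without f/f replicate 1 and 5 without KO replicate 2. With equal numbers of peaks the region was chr16:38196411-38197763 inside Gsk3b, and the 3 weak regions no longer counted. Regions only in KO numbered 0, and became 3 with a peak in at least 2 of 3 libraries, 1 with equal numbers (the raised region chr19:3681054-3681937 of Lrp5) and 0 to 3 with a library left out, 3 of them without KO replicate 3. The 6 regions lower in KO became 1 by fold, and 4 to 10 with a library left out, with 4 without f/f replicate 3 and 10 without KO replicate 3. The 5 higher regions became 1 by fold, 3 with equal numbers, and 4 to 7 with a library left out. The number of genes with more regions in every f/f library went from 2 to 0 with equal numbers and to 1 with a −log10 q of 5 or more. By fold the start of Senp2 changed sign to 14.4 and the region in Igf2bp2 to 1.32. The causes were not tested, except that equal numbers keep fewer peaks. The raised and lowered regions inside Lrp5 had no value with equal numbers, and the lowered ones none with a −log10 q of 5 or more.

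Over the named regions and all alternatives, 226 values in all, 20 fell short of the threshold with the sign kept. A further 2 fell short with the sign reversed, and 3 newly passed it. The sign changed in 8, of which 7 were by fold and 1 was the start of Axin2 without f/f replicate 3. Of the 11 calls, Csnk1a1 was the least firm.

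The replicate numbers were not found to pair the samples, since deviations from the group means correlated at 0.0678, -0.105 and -0.124 between libraries of the same number. With the replicate block, 6 regions at the 10 genes were lower and 4 higher, and 2833 and 3215 over all regions. Permuting within numbers cannot give a p below 0.25 for the number of regions. Read depth was not used here.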

Other observations

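Of 44 other genes of the pathway, a list that covers Dishevelled, the E3 ligase and tankyrase genes, PP2A subunits, β-catenin partners and others, all matched the annotation. They had 311 regions, of which 10 were only in f/f (3.22%, beside 3.75% of all regions) and 0 only in KO. Of the 141 with a peak in all 6 libraries, 20 were lower and 20 higher in KO (14.2% each), beside 11.3% and 12.6% of all regions. The median difference was -0.43.

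The gene with the largest difference in number was Fbxw11, which encodes a substrate adaptor of the E3 ligase for β-catenin. Its f/f libraries had a peak in 13, 12 and 13 regions and its KO libraries in 9, 7 and 4, and 2 of its regions were only in f/f. Btrc, the gene of the related adaptor, had 9, 8 and 10 in f/f and 7, 7 and 3 in KO. In both genes every f/f library was above every KO library. The same held for Tnks2, a tankyrase that marks Axin for degradation (5, 5 and 6 against 4, 3 and 1), for Usp34, a deubiquitinase (5, 5 and 5 against 2, 2 and 2), and for Ctnna1, which encodes α-catenin (5, 5 and 8 against 3, 4 and 1). These 5 of 44 genes stand beside 9.94% of all protein-coding genes, and none of the 5 held with equal numbers of peaks. With equal numbers Dvl3, Ppp2r5a and Ppp2r5c were higher in every f/f library, and Apc2 and Bcl9l in every KO library. That is 3 and 2 of 44 genes, beside 4.92% and 3.84% of all genes in that setting.

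Usp34 also had 2 regions only in f/f, and Tnks2, Ppp2r5a, Bcl9l, Lrp4, Ctnnd1 and Ctnna1 had 1 each. Dvl3, singled out after its values were seen, lies on chromosome 16 at the edge of the segment with Gsk3b and Senp2. Of its 5 ranked regions, 4 were lower in KO. The share lower was 76.9% over the segment without the regions of Gsk3b and Senp2, and 11.3% over all regions.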
